A study of Mus musculus with 38 samples.

Results

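The genes described here encode the proteasome, its regulatory particles and its assembly chaperones. They are all the single-gene probe sets whose annotated symbol begins with Psma, Psmb, Psmc, Psmd, Psme or Psmg, except Psmb8 and Psmb9. The rule gave 53 probe sets of 47 genes, among 23410 probe sets with a gene name. The study used 5 mouse CD8 T cell clones, each measured after activation and at rest ("dormant"). Activated cells had been held for 14 h on immobilised antibody to CD3 (at 0.5 ug/ml), which triggers the T cell receptor complex, and dormant cells had not. Clones sAg1 and sAg3 carry the label CD8IL13+, clones 8uvmo-2 and 8uvmo-3 the label CD8IL13-, and clone CD8bm1 is an alloreactive CD8 clone. In the series' own account the IL13+ clones are Chlamydia-specific CD8 cells that make IL-13 and are restricted by MHC class II, and the IL13-negative clones are Chlamydia-specific cells of the conventional Tc1 kind. Each line is a single clone, so a phenotype rests on 2, 2 or 1 clones. The labels give no strain or age of the mice.

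Total RNA (100 ng) was labelled and hybridised to Affymetrix whole-transcript arrays, 38 in all. Of the 10 groups of clone and state, 8 had 4 arrays, and dormant sAg1 and dormant sAg3 had 3, which makes 20 activated and 18 dormant arrays. Values are log2 intensities as deposited, so a difference of 1 is a doubling. The labels do not say whether the arrays of a group came from separate cultures. All p-values therefore rest on array-to-array spread within a group, part or all of which may be technical.

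The proteasome is the barrel-shaped protease that degrades ubiquitin-tagged proteins in every cell. Its 20S core has outer rings of alpha subunits (Psma genes) and inner rings of beta subunits (Psmb genes), of which Psmb6, Psmb7 and Psmb5 carry the caspase-like, trypsin-like and chymotrypsin-like active sites. In lymphocytes and in cells exposed to interferon gamma, the immunoproteasome subunits Psmb9, Psmb10 and Psmb8 take the places of Psmb6, Psmb7 and Psmb5. The 19S particle, made of an ATPase ring (Psmc genes) and a base and lid of other subunits (Psmd genes), binds and unfolds substrates. Psme genes encode other caps, and Psmg genes encode chaperones of 20S assembly.

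The working name of this set, constitutive proteasome genes, did not hold for every member. Psmb10 is the immunoproteasome form of the trypsin-like subunit. Psme1 and Psme2 encode the interferon-inducible PA28 cap. Psma8 is an alpha subunit of testis and Psmb11 a catalytic subunit of the thymus, and both lay near the array background, with means under 7 over all arrays. Psmc3ip and Psme3ip1 match by spelling only: Psmc3ip is a factor of meiotic recombination and Psme3ip1 a partner of the Psme3 cap. The other 51 probe sets, of 45 genes, stand for subunits, caps or chaperones. Of the 53 probe sets, 44 had a mean of at least 9 and are called bright below. Psma3 had 3 probe sets, and Psma5, Psmb3, Psmc1 and Psmd2 had 2 each. Their probe sets correlated at 0.95 or more over the 38 arrays, and some may read near-identical copies of the gene.

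Promoter sequence is shown for members that illustrate 2 motifs tied to proteasome genes in the literature. Nfe2l1 (Nrf1) is a transcription factor known to raise proteasome genes through the antioxidant response element, searched here as TGACNNNGC. An interferon response motif was searched as GAAA, any 2 bases, and GAAA again. Both were sought on both strands of the window of 250 bases before to 50 bases after each RefSeq start (GRCm38.p6), and promoter windows were found for 39 of the 47 genes, 43 windows in all. The antioxidant motif was in 6 windows (14%), of Psmb5, Psmb6, Psmc6, Psmd12, Psmd9 and Psme4, against 12.4% of all 32851 windows. The interferon motif was in 5 windows (11.6%), of Psmb3, Psmd4, Psmd9, Psme1 and Psmg4, against 3.44% of all windows. The CCAAT box was in 34.9% of the proteasome windows against 37.4%, the E box CACGTG in 11.6% against 7.15%, and the gamma-activated site TTCNNNGAA in 4.65% against 8.3%. A match describes letters in a window and is not a site of binding. The antioxidant motif is in capitals in 6 sequences below, either as searched or as its reverse complement, and the reverse complement of the interferon motif is in capitals in Psme1. All are given on the gene's strand, 5′ to 3′.
Psmb5, chr14:54617946-54618245, minus strand: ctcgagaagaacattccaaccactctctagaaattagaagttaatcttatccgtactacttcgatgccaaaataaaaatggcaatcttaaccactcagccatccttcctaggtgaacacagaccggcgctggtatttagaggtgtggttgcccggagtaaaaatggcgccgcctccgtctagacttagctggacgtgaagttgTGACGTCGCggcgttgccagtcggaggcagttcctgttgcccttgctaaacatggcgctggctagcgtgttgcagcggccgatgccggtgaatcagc
Psmb6, chr11:70525107-70525406, plus strand: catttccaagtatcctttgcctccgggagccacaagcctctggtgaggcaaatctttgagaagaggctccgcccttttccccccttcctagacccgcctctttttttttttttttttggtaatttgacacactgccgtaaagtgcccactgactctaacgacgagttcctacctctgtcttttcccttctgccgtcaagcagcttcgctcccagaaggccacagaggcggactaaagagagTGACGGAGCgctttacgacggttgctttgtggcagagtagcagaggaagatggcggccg
Psmc6, chr14:45329587-45329615, plus strand: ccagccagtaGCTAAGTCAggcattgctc
Psmd12, chr11:107479278-107479299, plus strand: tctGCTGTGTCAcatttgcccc
Psmd9, chr5:123228149-123228177, plus strand: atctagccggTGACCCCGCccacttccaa
Psme4, chr11:30771758-30771786, plus strand: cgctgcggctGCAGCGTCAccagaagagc
Psme1, chr14:55578244-55578543, plus strand: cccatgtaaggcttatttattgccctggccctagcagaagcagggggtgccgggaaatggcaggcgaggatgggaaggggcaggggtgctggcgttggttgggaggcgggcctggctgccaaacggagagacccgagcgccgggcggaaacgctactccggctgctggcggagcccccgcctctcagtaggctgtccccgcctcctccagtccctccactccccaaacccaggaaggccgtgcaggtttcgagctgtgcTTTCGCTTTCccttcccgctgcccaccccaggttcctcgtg

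Activation moved more probe sets than any other comparison made here, and it also shifted the whole array. The array median lay between 6.68 and 6.80 in activated arrays and between 6.21 and 6.41 in dormant arrays, a shift of 0.41. Over all bright probe sets of the table the array medians were 10.11 to 10.27 in activated and 10.11 to 10.23 in dormant arrays, so dim probe sets carried the shift. Most proteasome probe sets are bright, and the main activation counts below are therefore set beside those of the bright probe sets. Many values are also given after each array was centred on its own median ("after centring"). T cell markers were high except for Cd2 in sAg3 and CD8bm1: the array median of 7 T cell marker probe sets was 11.74 to 12.4 in activated and 11.04 to 12.24 in dormant arrays. Cd2, an adhesion receptor, averaged 6.65 in activated and 5.80 in dormant sAg3 and 6.46 in activated and 5.59 in dormant CD8bm1, near background, and at least 8.33 in the groups of the other clones. Medians of B cell markers (5.13 to 5.77 activated, 4.78 to 5.16 dormant) and macrophage markers (5.89 to 6.97 activated, 5.36 to 6.33 dormant) lay near background as lists. Single macrophage probe sets stood apart: Lyz2 averaged 9.26 in dormant sAg1 and 4.95 to 6.02 in the other dormant clones, Ctss 10.81 in activated and 10.94 in dormant sAg3, Itgam 9.99 in dormant 8uvmo-2 and 7.57 in dormant 8uvmo-3, and Cd68 7.81 to 8.90 in activated and 9.14 to 10.33 in dormant groups. Fcer1g averaged 6.95 in dormant sAg1 and 5.20 to 5.65 in the other dormant clones, and Tyrobp 6.68 and 5.91 to 6.04. Group means of Csf1r, Adgre1, Mrc1, Cd14 and the 3 C1q probe sets were at most 6.68. Of 13 macrophage probe sets 9 were higher and 3 (Cd68, Ctss and Itgam) lower in activated arrays (68.4% and 22% of all probe sets). After centring 6 were higher and 4 lower (36.1% and 47.7%). Of 25 proliferation probe sets, 2 were higher and 14 lower in activated arrays, with a median of -0.51. Their part in the results below was not tested. In bulk RNA a smaller share of cells of a kind and less RNA per cell cannot be told apart.

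Activated clones had more transcript of most proteasome genes than dormant clones. On the mean of the 5 clones, 43 of 53 probe sets rose and 6 fell (limma on all arrays, Benjamini-Hochberg adjusted p under 0.05 over all 23410 probe sets), against 68.4% higher and 22% lower over all probe sets tested. The other 4, Psma1, Psmb1, Psmd7 and Psmc3ip, did not pass the test. Among bright probe sets, 35 of 44 proteasome members (79.5%) rose, against 39.8% of all bright probe sets. The median difference was 0.39 for the proteasome members, 0.35 for all probe sets tested and -0.04 for all bright ones. After centring, 21 members were higher and 20 lower, with a median of -0.02, against 36.1% and 47.7% of all probe sets and a median of -0.46 for the bright ones. Of the 44 bright members, 17 were higher and 17 lower after centring, against 816 and 4314 of all 5632 bright probe sets. After quantile normalisation, 42 were higher and 7 lower, against 47.9% and 33.4% of all probe sets. The median of the members thus lay above that of all bright probe sets as deposited and after quantile normalisation. Centring takes the same amount from every probe set of an array and so could not change this gap. The sign of many smaller changes turned after centring, whereas centring on the bright probe sets instead gave 43 members higher and 7 lower.

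**Figure D1:**
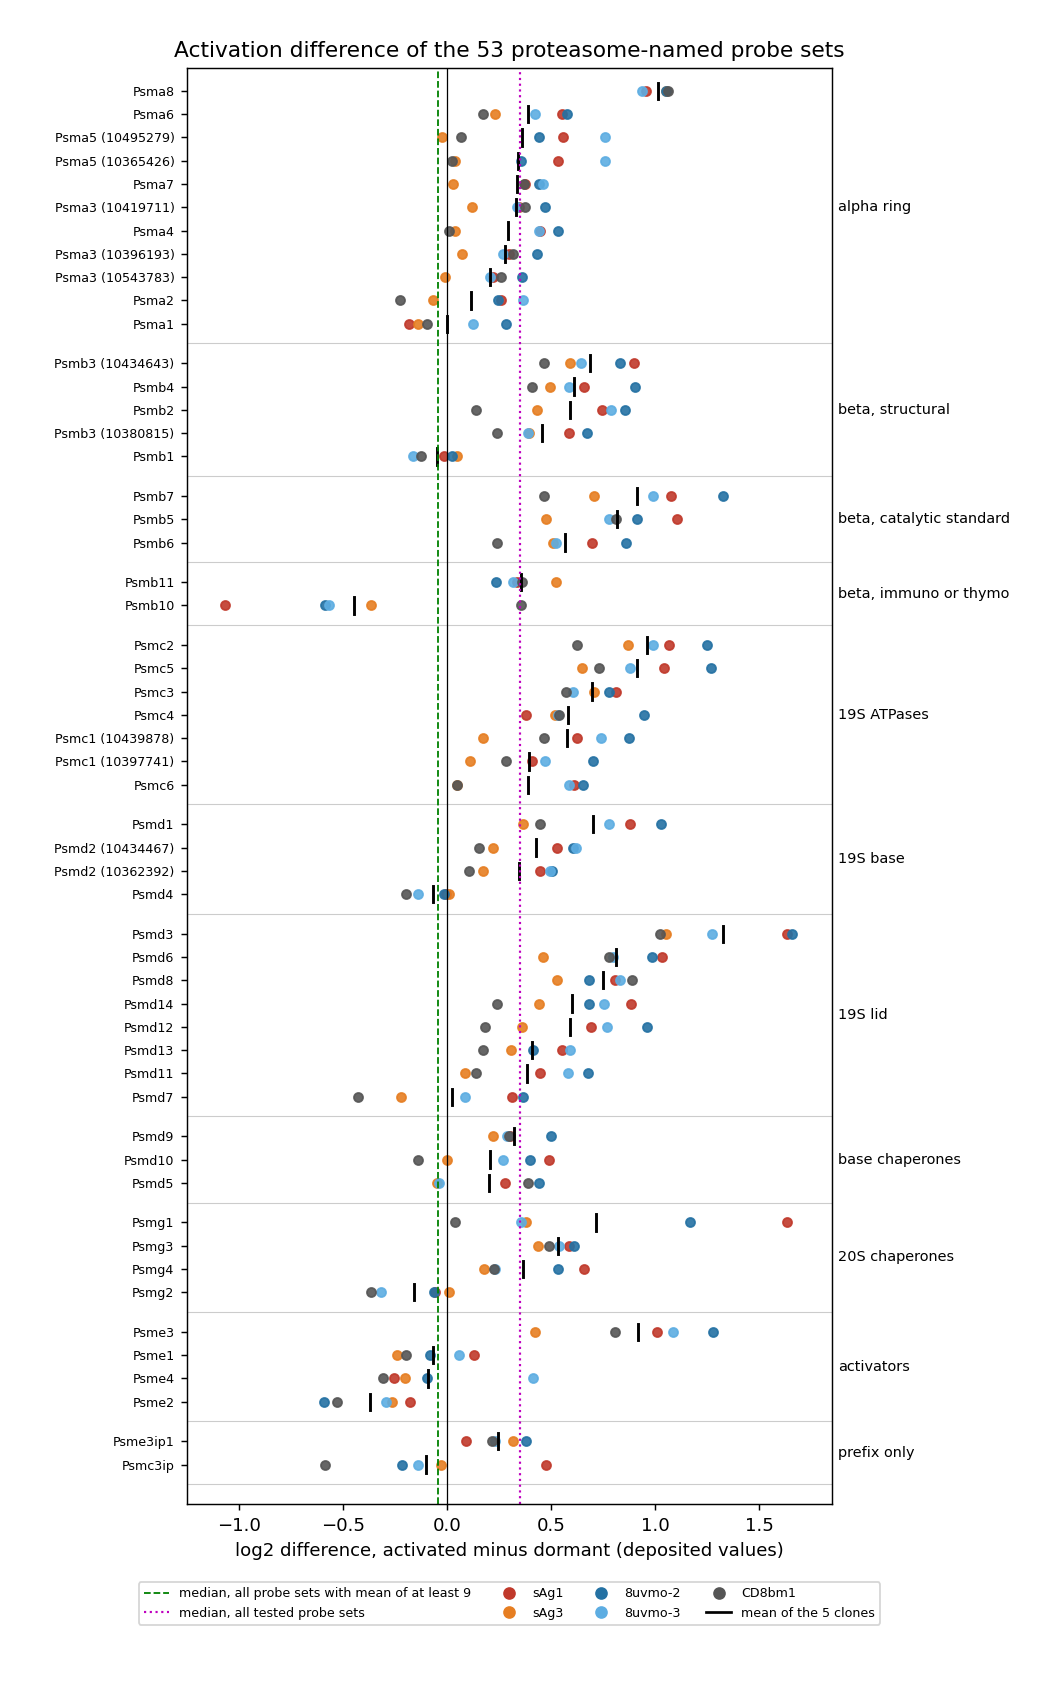
Activated minus dormant log2 difference (deposited values) of each of the 53 proteasome probe sets, 1 point per clone and a bar at the mean of the 5 clones, grouped by role; vertical lines mark the median of all tested probe sets (dotted, 0.35) and of the bright ones (dashed, -0.04). The highest mean is that of Psmd3 at 1.33 and the lowest that of Psmb10 at -0.45, with its clones spread over -1.07 to 0.35; the sign of many alpha ring and base chaperone means turns after centring.

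Differences of at least 0.5 were found upward in 21 members (36.2% of all probe sets), and the largest fall among members was 0.45. In each of the 5 clones alike, 25 members rose (45.3% of all probe sets), and among bright probe sets these were 19 of 44 (43.2%) against 13.5% of all. In 11 members every activated array was above every dormant array, against 27.2% of all probe sets: Psmd3, Psme3, Psmc5, Psmd6, Psmb5, Psma8, Psmb7, Psmc2, Psmg3, Psmc4 and Psmd8. Of the 11, 8 are bright, 18.2% of the bright members against 3.73% of all bright probe sets.

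**Figure D2:**
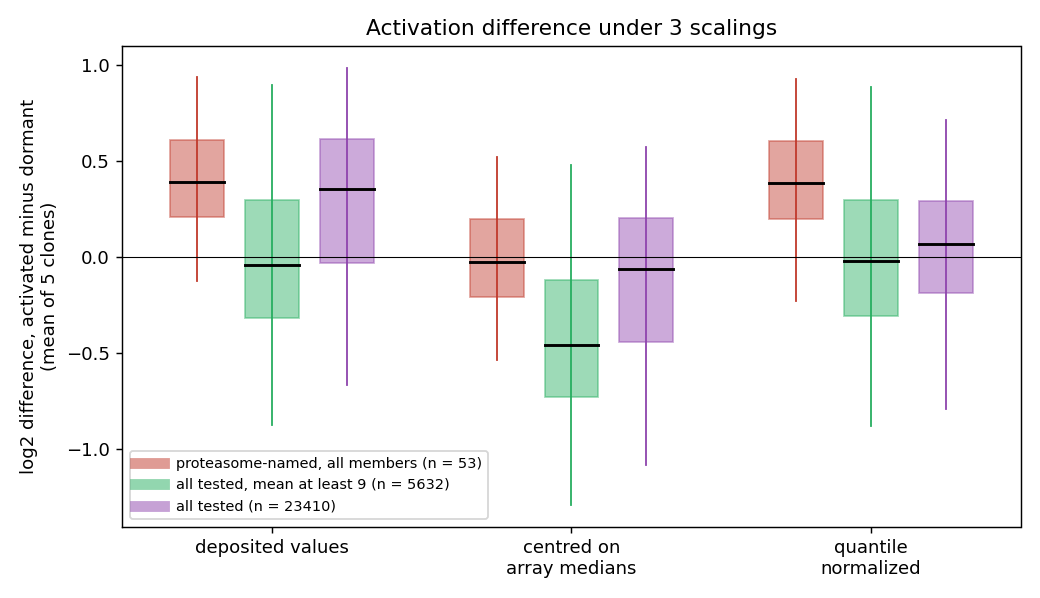
Boxes (quartiles, with the median as a line and bars over the 5th to 95th percentile) of the activated minus dormant log2 difference, mean of the 5 clones, for the proteasome probe sets, for all bright probe sets and for all probe sets, under the deposited scale, median centring and quantile normalisation. The proteasome median is 0.39 as deposited, -0.02 after centring and 0.38 after quantile normalisation, above the bright probe sets each time (-0.04, -0.46 and -0.02). Centring moves both medians by the same amount, so it cannot change the gap between them.

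The 3 active-site subunits of the standard proteasome rose in every clone on the deposited scale, although in CD8bm1 the difference of Psmb6 (0.24) turned to -0.22 after centring and that of Psmb7 (0.47) was 0.01 on that scale. Psmb5, the chymotrypsin-like subunit on chromosome 14, ranged over 9.51, 9.83 and 10.10 (lowest, median and highest) in 20 activated arrays and over 8.59, 8.87 and 9.38 in 18 dormant arrays. No activated array overlapped a dormant one, and the difference was 0.82 ± 0.044 (SE; 1.76-fold, limma adjusted p = 2.88e-18). Psmb7, the trypsin-like subunit on chromosome 2, had 11.06, 11.33 and 11.82 in activated and 10.09, 10.40 and 10.93 in dormant arrays. It also did not overlap between states, and it rose by 0.91 ± 0.039 (1.88-fold, limma adjusted p = 2.97e-21). Psmb6, the caspase-like subunit on chromosome 11, had 11.50, 11.72 and 12.07 in activated and 10.91, 11.26 and 11.56 in dormant arrays. Its states overlapped across clones but not within any clone, since dormant 8uvmo-3 reached the level of activated CD8bm1, and the difference was 0.56 ± 0.033 (1.48-fold, limma adjusted p = 1.65e-17). On the mean of the clones all 3 also rose after centring, by 0.40, 0.50 and 0.15 for Psmb5, Psmb7 and Psmb6. By clone, the centred differences that did not pass were those of Psmb5 (0.03) and Psmb6 (0.06) in sAg3, Psmb6 in 8uvmo-3 (0.09) and Psmb7 in CD8bm1.

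Their immunoproteasome counterparts went the other way in most clones. Psmb10 was 10.15, 10.13, 10.13 and 10.07 in activated sAg3 and 10.58, 10.41 and 10.47 in dormant sAg3. It was 9.26, 9.30, 9.38 and 8.97 in activated sAg1, against 10.22, 10.33 and 10.34 in dormant sAg1. It was 8.96, 8.91, 8.93 and 8.96 in activated CD8bm1, against 8.54, 8.48, 8.38 and 8.95 in dormant CD8bm1, where the last array reached the activated level. CD8bm1, with the lowest mean in both states (8.94 activated, where it overlapped 8uvmo-2, and 8.59 dormant), was the only one of the 5 in which Psmb10 did not fall: the differences were -1.07 (sAg1), -0.37 (sAg3), -0.59 (8uvmo-2), -0.57 (8uvmo-3) and 0.35 (CD8bm1), all past the test, although the CD8bm1 rise became -0.10 after centring. The 8uvmo-2 arrays overlapped between states, at 8.92, 8.88, 9.52 and 9.04 activated and 9.80, 9.43, 9.97 and 9.51 dormant. On the mean of the clones Psmb10 fell by 0.45 (SE 0.066, fold 0.73, limma adjusted p = 1.43e-07). Psmb9 and Psmb8, which are outside the member rule, fell by 1.84 (SE 0.041, limma adjusted p = 1.68e-28) and 0.59 (SE 0.026, limma adjusted p = 7.85e-21), and for both all activated arrays were below all dormant arrays.

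**Figure D3:**
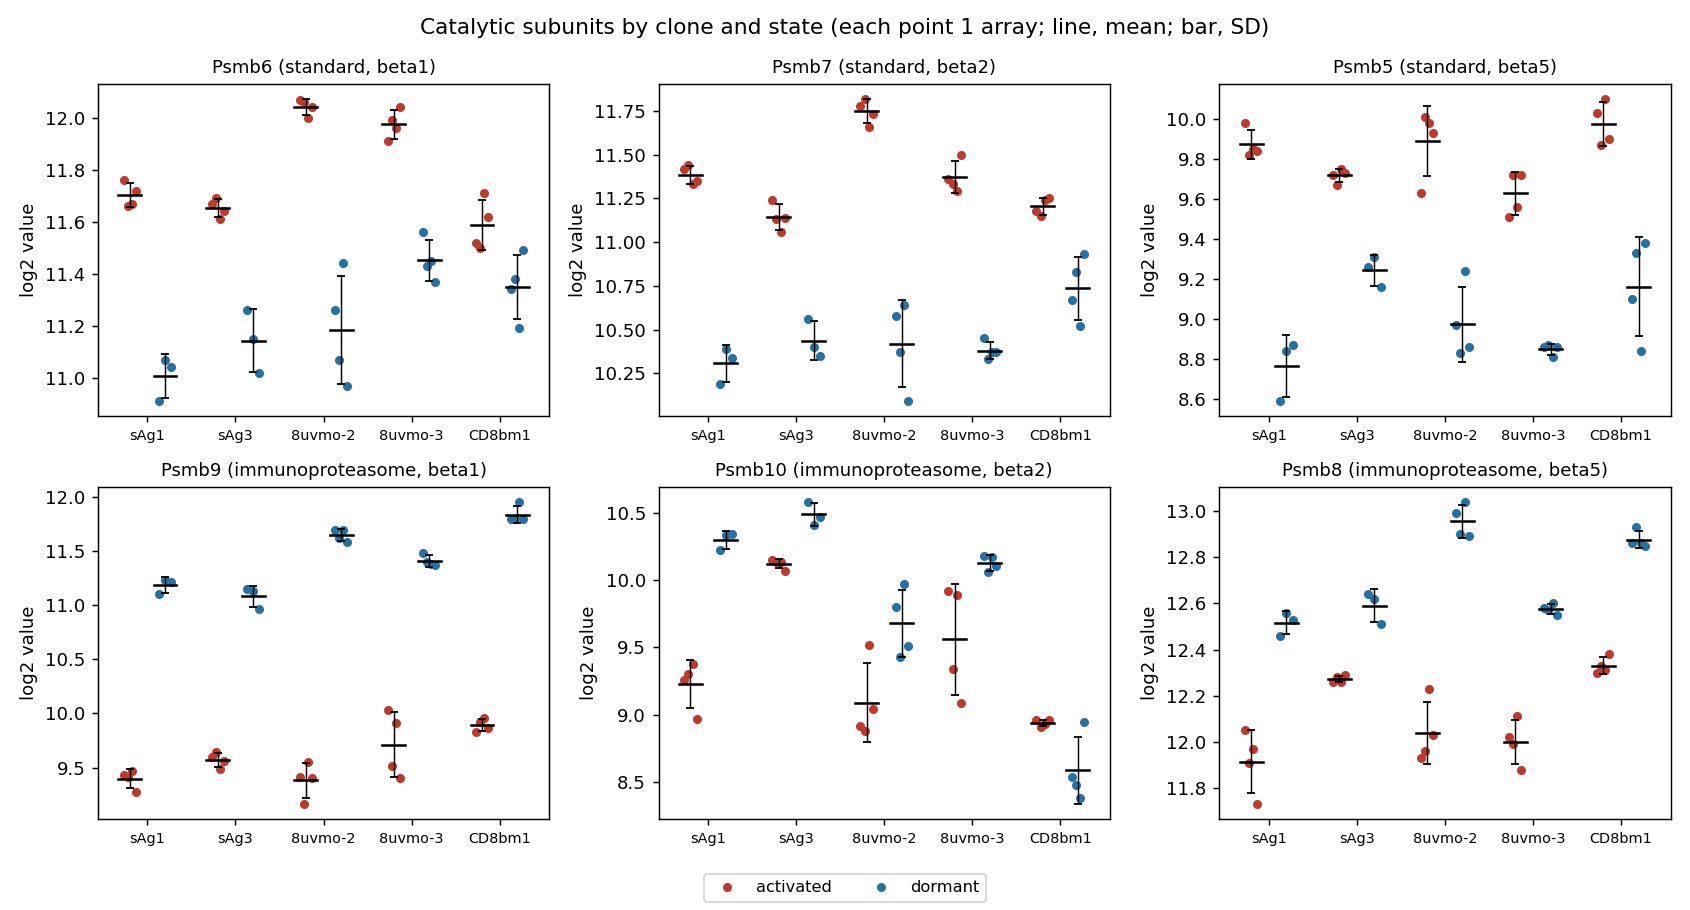
Log2 value of the standard (top) and immunoproteasome (bottom) subunit of each active site in every array, activated left of dormant within each clone; lines are group means and bars the SD over 3 or 4 arrays. The standard subunits Psmb6, Psmb7 and Psmb5 are higher and Psmb9 and Psmb8 lower in activated arrays of all 5 clones on average, and the mean of Psmb10 is lower in activated arrays of 4 clones and higher in CD8bm1. After centring the CD8bm1 rises of Psmb6 and Psmb10 turn (-0.22 and -0.10).

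The shift of each active site from immunoproteasome toward standard transcript was taken as the change of the standard minus the change of the immunoproteasome subunit, which no array-wide scaling factor can move. At the caspase-like site (Psmb6 minus Psmb9) it was 2.41 ± 0.053 (SE), a 5.31-fold change of the ratio. At the chymotrypsin-like site (Psmb5 minus Psmb8) it was 1.41 ± 0.044, or 2.65-fold, and at the trypsin-like site (Psmb7 minus Psmb10) 1.36 ± 0.072, or 2.57-fold. By clone the caspase-like shift was 2.49 (sAg1), 2.02 (sAg3), 3.13 (8uvmo-2), 2.22 (8uvmo-3) and 2.18 (CD8bm1). The trypsin-like shift was 2.15, 1.07, 1.92 and 1.56 in sAg1, sAg3, 8uvmo-2 and 8uvmo-3, and 0.12 ± 0.16 in CD8bm1, within its error of no change. These are changes of ratio, and the levels of different probe sets were not compared.

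The structural beta subunits, which have no active site, split. Psmb2 rose by 0.59 ± 0.031 (1.51-fold, limma adjusted p = 1.43e-18), with 11.21, 11.47 and 12.04 in activated and 10.62, 10.89 and 11.26 in dormant arrays. Psmb4 rose by 0.61 and Psmb3 by 0.46 and 0.69 at its 2 probe sets. Psmb1 did not pass the test on the deposited scale (difference -0.05, limma adjusted p = 0.102) and was lower after centring (-0.46). The catalytic thymus subunit Psmb11 rose by 0.35, but its values were 5.70 to 6.30 in activated and 5.59 to 5.92 in dormant arrays, near background. Its sign turned after centring (-0.06) and after quantile normalisation (-0.11).

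The alpha ring, which gates entry to the core, rose in 10 of 11 probe sets, with a median of 0.33, against 0.82 for the 3 standard active-site subunits. Over all probe sets 68.4% rose, and over the bright ones 39.8%. After centring 1 alpha probe set was higher and 6 were lower, with a median of -0.085. Of all 5632 bright probe sets, 816 were higher and 4314 lower on that scale, with a median of -0.46. Psma6 rose by 0.39 ± 0.028 (limma adjusted p = 4.7e-15), Psma7 by 0.34, Psma4 by 0.29 and Psma3 by 0.21 to 0.33. Psma5 rose by 0.34 ± 0.041 (limma adjusted p = 1.59e-09) at the probe set 10365426 and by 0.36 at 10495279. Its values at the first were 9.21, 9.41 and 9.76 in activated and 8.46, 9.15 and 9.59 in dormant arrays, and the states overlapped. Psma2 rose by 0.11 ± 0.025 (limma adjusted p = 8.25e-05), with 10.76, 10.96 and 11.34 in activated and 10.48, 10.91 and 11.14 in dormant arrays, also overlapping. After centring Psma5, Psma2, Psma6, Psma7, Psma4 and Psma3 all had differences below zero, for example -0.07, -0.30 and -0.02 for Psma5 (10365426), Psma2 and Psma6. Psma1 did not pass on the deposited scale (limma adjusted p = 0.957). The testis subunit Psma8 rose by 1.01 ± 0.048 (limma adjusted p = 7.44e-20), but only to 5.80 to 6.41 in activated arrays, against 4.95 to 5.47 in dormant arrays, a range near background in which probe sets in general were higher in activated arrays.

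All 7 probe sets of the ATPase ring, which unfolds substrates, rose, with a median of 0.58, and 5 still rose after centring. The shares that rose over all probe sets were 68.4% as deposited and 36.1% after centring. Of the 5632 bright ones, 39.8% rose as deposited and 816 probe sets after centring. Psmc2 had 9.95, 10.45 and 10.92 in activated and 9.13, 9.43 and 9.77 in dormant arrays, with no overlap, and rose by 0.96 ± 0.041 (1.94-fold, limma adjusted p = 4.87e-21). Psmc5 had 8.90, 9.40 and 9.80 in activated and 8.06, 8.52 and 8.73 in dormant arrays, again with no overlap, and rose by 0.91 ± 0.051 (1.88-fold, limma adjusted p = 7.49e-18). Psmc3 rose by 0.69, Psmc4 by 0.58 and Psmc1 by 0.40 and 0.57. Psmc6 rose least, by 0.39 ± 0.032 (limma adjusted p = 2.1e-13), with 10.04, 10.45 and 10.87 in activated and 9.86, 10.05 and 10.44 in dormant arrays, and its difference after centring was -0.02.

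The lid, which holds the deubiquitinase Psmd14, contained the member with the largest rise. Psmd3, a lid scaffold subunit on chromosome 11, had 9.94, 10.38 and 10.69 in activated and 8.59, 9.06 and 9.61 in dormant arrays. The states did not overlap, and it rose by 1.33 ± 0.045 (2.51-fold, limma adjusted p = 9.05e-24) and by 0.91 after centring. Psmd6 rose by 0.81, Psmd8 by 0.75, Psmd14 by 0.60, Psmd12 by 0.59, Psmd13 by 0.41 and Psmd11 by 0.39, so 7 of 8 lid probe sets rose and 5 of them also after centring. Of all 5632 bright probe sets, 39.8% rose as deposited and 816 probe sets after centring. Psmd7, the partner of Psmd14, did not pass on the mean of the clones (0.02, limma adjusted p = 0.649). Of the 4 probe sets of the non-ATPase base, Psmd1, a scaffold that docks ubiquitin receptors, rose by 0.70, and Psmd2, another scaffold, by 0.34 and 0.43. The ubiquitin receptor Psmd4 had 9.41, 9.60 and 9.94 in activated and 9.37, 9.73 and 9.97 in dormant arrays. These overlapped almost wholly, and the fall of 0.07 (SE 0.030, limma adjusted p = 0.0305) was lost when any of 7 single arrays was left out.

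Among assembly factors, Psmg1, a chaperone of the alpha ring, rose by 0.71 ± 0.068 (1.64-fold, limma adjusted p = 7.48e-12), and Psmg3 and Psmg4, another chaperone pair, rose by 0.53 and 0.36. Psmg3 and Psmg4 are not bright, with means of 7.23 and 7.64 over all arrays, and the median rise of all probe sets tested was 0.35. Of the 4 Psmg probe sets, 2 were higher and 1 lower after centring. Psmg2, the partner of Psmg1, had 8.90, 9.12 and 9.54 in activated and 8.84, 9.36 and 9.64 in dormant arrays and fell by 0.16 (SE 0.045, limma adjusted p = 0.00125). The fall of Psmg2 passed in 2 of the 5 clones, 8uvmo-3 and CD8bm1, and was lost with clone means as replicates (limma adjusted p = 0.147). After centring the means were 0.30 for Psmg1 and -0.57 for Psmg2. The chaperones of the 19S base, Psmd5, Psmd9 and Psmd10, rose by 0.20, 0.32 and 0.20, and all 3 were lower after centring.

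The alternative caps differed in direction. Psme3, the nuclear PA28 gamma cap, had 11.41, 11.89 and 12.14 in activated and 10.37, 10.95 and 11.17 in dormant arrays. No arrays overlapped, and it rose by 0.92 ± 0.043 (1.89-fold, limma adjusted p = 5.52e-20; 0.51 after centring). Psme2, the beta chain of the interferon-inducible cap, had 9.43, 10.20 and 10.61 in activated and 9.97, 10.45 and 10.77 in dormant arrays. It fell by 0.37 (SE 0.036, fold 0.77, limma adjusted p = 1.01e-11), with the activated arrays below the dormant ones in 4 of the 5 clones. Psme1, the alpha chain, had 10.82, 11.26 and 11.55 in activated and 10.97, 11.30 and 11.50 in dormant arrays. Its fall of 0.07 (SE 0.028, limma adjusted p = 0.0221) was lost after quantile normalisation (limma adjusted p = 0.0628). Psme4, a nuclear cap of a different family, had 9.09, 9.66 and 9.94 in activated and 9.26, 9.66 and 10.32 in dormant arrays, and its fall of 0.09 (SE 0.034, limma adjusted p = 0.0141) was lost when sAg1, sAg3 or CD8bm1 was left out.

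The clones differed in how far activation moved these genes. Activation raised 44 members and lowered 2 in sAg1 (62% and 17.6% of all probe sets), 29 and 4 in sAg3 (59% and 14.1%), and 45 and 2 in 8uvmo-2 (63.2% and 19.3%). It raised 43 and lowered 5 in 8uvmo-3 (62.2% and 19.2%) and 35 and 8 in CD8bm1 (61.4% and 18%). Of the 44 bright members, 36 rose and 2 fell in sAg1, against 2104 and 2164 of all 5632 bright probe sets. In sAg3 these counts were 21 and 4, against 1359 and 2033. They were 37 and 2 in 8uvmo-2, against 2049 and 2320, and 35 and 5 in 8uvmo-3, against 2064 and 2283. In CD8bm1 they were 28 and 7, against 1688 and 2252. The median differences of the 53 members were 0.53, 0.22, 0.58, 0.49 and 0.24 for sAg1, sAg3, 8uvmo-2, 8uvmo-3 and CD8bm1. In the same order, the centred medians of the bright members were 0.21, -0.30, 0.18, 0.10 and -0.22. Those of all bright probe sets were -0.33, -0.51, -0.46, -0.46 and -0.52. Of 5632 bright probe sets, 207 were higher and 4293 lower in sAg3 after centring, against 4 and 25 of 44 bright members. In CD8bm1 these counts were 424 and 4212, against 5 and 24. After centring, the balance turned in sAg3, with 5 higher and 28 lower (19.5% and 40% of all probe sets), and in CD8bm1, with 6 and 28 (22.6% and 41.8%). It did not turn in sAg1 (25 and 9; 34.6% and 30.2%), 8uvmo-2 (25 and 9; 29.6% and 37.8%) or 8uvmo-3 (18 and 13; 26.5% and 39.3%).

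**Figure D4:**
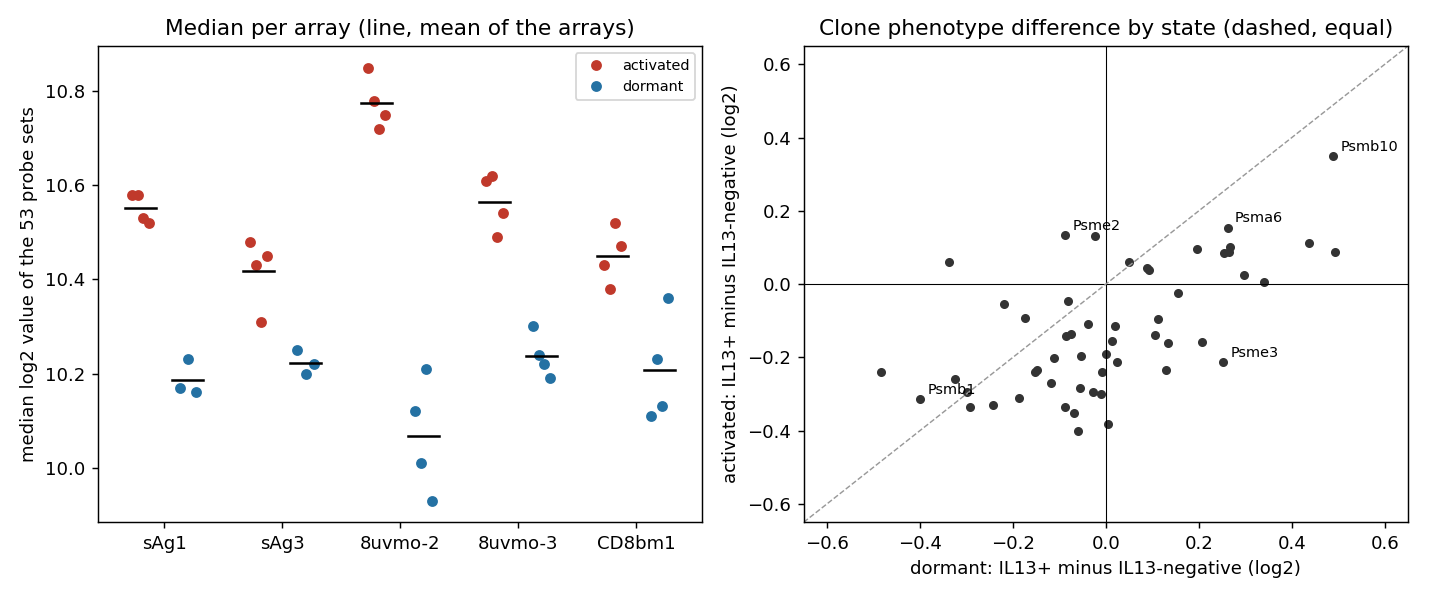
Left, median log2 value of the 53 proteasome probe sets in each array, activated left of dormant within each clone, with lines at the mean of the arrays; activated 8uvmo-2 is highest at 10.78 ± 0.056 (SD) and dormant 8uvmo-2 lowest at 10.07 ± 0.12. Right, each member's IL13+ minus IL13-negative log2 difference in activated cells (vertical) against that in dormant cells (horizontal), with a dashed line of equality; most points lie below zero on the vertical axis and Psmb10 lies highest on it (0.35).

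The limma F test of the difference among clones was passed by 41 of 53 members, against 45.8% of all probe sets, and by 37 of 44 bright members (84.1%) against 80.1% of all bright probe sets. The 4 members with the smallest adjusted p were Psmd12 (limma adjusted p = 9.56e-08), Psma2 (1.43e-07), Psmb2 (2.71e-07) and Psmc6 (3.21e-07). Psmd12, a lid scaffold, was 11.38, 11.21, 11.18 and 11.08 in activated 8uvmo-2, against 10.40, 10.14, 10.36 and 10.11 in dormant 8uvmo-2. It was 10.57, 10.56, 10.66 and 10.65 in activated CD8bm1, against 10.39, 10.45, 10.28 and 10.59 in dormant CD8bm1. The first pair of groups was far apart and the second overlapped slightly, and the differences were 0.69 (sAg1), 0.36 (sAg3), 0.96 (8uvmo-2), 0.77 (8uvmo-3) and 0.18 (CD8bm1). Psmb2 rose in sAg1, sAg3, 8uvmo-2 and 8uvmo-3 (0.74, 0.43, 0.86 and 0.79), with a difference of 0.14 in CD8bm1 that did not pass. Psmc6 rose by 0.61 in sAg1, 0.66 in 8uvmo-2 and 0.58 in 8uvmo-3, and its difference was 0.05 in both sAg3 and CD8bm1. Psma2 rose in sAg1, 8uvmo-2 and 8uvmo-3 (0.26, 0.24 and 0.36) and fell in CD8bm1 (-0.23), and its difference in sAg3 was -0.07. Psme4 rose in 8uvmo-3 alone of the 5 clones on the deposited scale, with 9.78, 9.66, 9.66 and 9.82 in activated and 9.39, 9.33, 9.29 and 9.26 in dormant arrays (0.41, F test limma adjusted p = 2.55e-06).

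Psmg1 and Psmb10 varied most among dormant clones. Dormant Psmg1 was 7.46, 7.58 and 7.52 in sAg1, 8.59, 8.35 and 8.33 in sAg3, and 8.30, 8.03, 8.36 and 8.01 in 8uvmo-2. It was 8.83, 8.56, 8.83 and 8.73 in dormant 8uvmo-3 and 8.83, 9.36, 9.21 and 9.63 in dormant CD8bm1. Activated clones lay closer together, with means of 9.15 ± 0.22 (sAg1; SD, n = 4), 8.80 ± 0.25 (sAg3), 9.34 ± 0.32 (8uvmo-2), 9.09 ± 0.095 (8uvmo-3) and 9.29 ± 0.22 (CD8bm1). The activation differences were 1.63 (sAg1), 0.38 (sAg3), 1.16 (8uvmo-2), 0.36 (8uvmo-3) and 0.04 (CD8bm1), the last not past the test, and those of sAg3, 8uvmo-3 and CD8bm1 turned below zero after centring (-0.07, -0.08 and -0.42). The dormant clone means spanned 1.90 for Psmb10 (sAg3 highest, CD8bm1 lowest), 1.74 for Psmg1, 0.82 for Psme4 (CD8bm1 highest, 8uvmo-3 lowest) and 0.75 for Psma5. Psmb10, Psmd7 and Psme3ip1 lie on chromosome 8, on which the 580 probe sets of a chromosome-wide count had a median of 0.23 for sAg3 minus the other clones in activated and 0.26 in dormant arrays. The median over 9963 probe sets elsewhere was -0.06 in both states. For Psmb10 the same difference was 0.92 in activated and 0.81 in dormant arrays. The part of the chromosome-wide shift in it was not tested.

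Across the 10 group means, 28 of 53 members followed the median of the other members with r over 0.8 (median r 0.81), and 7 ran below zero, among them Psme2 (-0.52), Psmb10 (-0.42), Psme4, Psmd4 and Psme1. This describes 10 points that share clones and states.

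In dormant cells, IL13+ clones were set against IL13-negative clones, the comparison of phenotypes at rest. Of the proteasome probe sets, 14 were higher and 11 lower in IL13+ clones (19.4% and 18% of all probe sets), with a median of -0.01. After centring 10 were higher and 13 lower (13.8% and 21.6%). Of the 44 bright members, 13 were higher and 9 lower as deposited, against 1653 and 1589 of all 5632 bright probe sets. The alpha ring was higher in 8 of its 11 probe sets, which include 3 of Psma3 and 2 of Psma5. The differences were 0.30 and 0.34 for Psma5, 0.25 to 0.27 for Psma3, 0.26 for Psma6, 0.21 for Psma1 and 0.11 for Psma2. Psma5 at 10365426 was 8.99 to 9.21 in dormant sAg1 and 9.12 to 9.44 in sAg3. It was 9.10 to 9.28 in dormant 8uvmo-2 and 8.46 to 8.71 in 8uvmo-3. Psma2 was lower in sAg1 (10.70 to 10.72) than in 8uvmo-2 (10.89 to 11.04). Psma6 was higher in sAg1 (10.71 to 10.75) than in 8uvmo-2 (10.14 to 10.50) or 8uvmo-3 (10.46 to 10.57). Psmc1 was higher by 0.44 and 0.49, and Psmb10 by 0.49 ± 0.11 (limma adjusted p = 0.000419). Structural beta subunits were lower in 3 of 5 probe sets, Psmb1 by -0.40 (limma adjusted p = 5.25e-09) and Psmb3 by -0.30 and -0.29, as were Psmg1 (-0.48 ± 0.11, limma adjusted p = 0.000602) and Psmc3 (-0.33). Dormant arrays also differed in proliferation genes: 19 of 25 probe sets of a fixed list were lower in IL13+ clones, with a median of -1.03. The list's array median was 7.60 to 8.05 in dormant sAg1, 8.55 to 9.34 in sAg3, 8.30 to 11.07 in 8uvmo-2 and 9.11 to 9.84 in 8uvmo-3. Its part in the proteasome differences was not tested.

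In activated cells the balance was one-sided: 25 members were lower and 2 higher in IL13+ than in IL13-negative clones, with a median of -0.16. Over all probe sets 15.3% were lower and 15.4% higher. Of the 44 bright members, 24 were lower and 2 higher, against 1625 and 1413 of all 5632 bright probe sets. All 5 structural beta probe sets, 5 of 7 ATPases, 4 of 8 lid probe sets and 2 of 3 standard active-site subunits were lower. Psmd12 was lower by -0.40 ± 0.048 (limma adjusted p = 1.57e-08), Psme4 by -0.38, Psmd1 by -0.35, Psma7 by -0.34 ± 0.037 (limma adjusted p = 2.96e-09), Psmb6 by -0.33, Psmb7 by -0.29 and Psmd3 by -0.31. Only Psmb10 (0.35 ± 0.10, limma adjusted p = 0.00682) and Psma6 (0.15, limma adjusted p = 0.00459) were higher, and each stood out in 1 IL13+ clone. Activated Psmb10 was 10.07 to 10.15 in sAg3, but 8.97 to 9.38 in sAg1, 8.88 to 9.52 in 8uvmo-2 and 9.09 to 9.92 in 8uvmo-3. Activated Psma6 was 11.25 to 11.34 in sAg1, but 10.80 to 10.85 in sAg3, 10.79 to 10.99 in 8uvmo-2 and 10.89 to 10.98 in 8uvmo-3. The clones of a phenotype were not alike. The median of the 53 members was 10.42 ± 0.075 in activated sAg3 and 10.78 ± 0.056 in activated 8uvmo-2 (SD over 4 arrays), while activated sAg1 (10.55 ± 0.032) and activated 8uvmo-3 (10.57 ± 0.061) were within their spread of each other. Psmd12 had 10.90, 10.81, 10.72 and 10.77 in activated sAg1 and 10.69, 10.64, 10.51 and 10.49 in activated sAg3, against 10.94, 11.02, 10.88 and 11.04 in activated 8uvmo-3, and sAg1 and 8uvmo-3 overlapped. With clone means as the replicates, 2 clones a side, limma called no member in the dormant comparison, the activated comparison or their difference, and unadjusted p was under 0.05 in 0, 0 and 1 members. The calls above are thus differences among the arrays of 4 clones.

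The activated minus dormant difference was itself lower (less positive or more negative) in IL13+ clones for 19 members and higher for 1. Over all probe sets 9.97% were lower and 11% higher. Of the 44 bright members, 19 were lower and 1 higher, against 1087 and 890 of all 5632 bright probe sets. Psme3 differed most, by -0.47 ± 0.097 (limma adjusted p = 0.000429): it rose by 1.01 in sAg1 and 0.42 in sAg3, against 1.28 in 8uvmo-2 and 1.08 in 8uvmo-3. Psme3 was 11.98, 12.05, 12.03 and 11.97 in activated sAg1 and 11.56, 11.51, 11.58 and 11.41 in activated sAg3. It was 10.97, 11.01 and 11.02 in dormant sAg1 and 11.17, 11.07 and 11.04 in dormant sAg3. In 8uvmo-2 it was 12.00, 11.95, 12.01 and 11.85 activated and 10.83, 10.52, 10.87 and 10.48 dormant. In 8uvmo-3 it was 11.87, 12.07, 11.91 and 12.14 activated and 10.97, 10.89, 10.94 and 10.85 dormant, where the first dormant array reached dormant sAg1. The lower dormant level of 8uvmo-2 and the lower activated level of sAg3 thus both entered. Psmc1 at 10439878 followed (-0.41, limma adjusted p = 0.0147; 0.0635 after centring), with differences of 0.62 and 0.17 in sAg1 and sAg3, against 0.87 and 0.74 in 8uvmo-2 and 8uvmo-3. Psme4 (-0.39, limma adjusted p = 0.000236), whose differences were -0.26 and -0.20 in sAg1 and sAg3 and -0.10 and 0.41 in 8uvmo-2 and 8uvmo-3, was next, then Psmd11 (-0.36, limma adjusted p = 4.92e-05), Psma1 (-0.36) and Psmd12 (-0.34). The 1 member with a higher value was Psme2 (0.22, limma adjusted p = 0.0465), with -0.18 and -0.27 in sAg1 and sAg3 and -0.59 and -0.30 in 8uvmo-2 and 8uvmo-3. After centring, 8 members were lower and 1 higher, against 7.26% and 13% of all probe sets. For the 44 bright members the centred counts were also 8 and 1, against 769 and 1058 of all 5632 bright probe sets. The proliferation list ran the other way in this contrast, with 12 of 25 probe sets higher and a median of 1.01. Dormant 8uvmo-2 replicates 1 and 3 had proliferation medians of 10.90 and 11.07, against 8.88 and 8.30 in replicates 2 and 4. With replicates 2 and 4 alone as dormant 8uvmo-2, 25 members had a lower difference in IL13+ clones.

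CD8bm1, a single clone, served as the conventional alloreactive comparator of both phenotypes, so these comparisons share its arrays. Dormant IL13+ clones had 12 members higher and 22 lower than dormant CD8bm1 (20.9% and 20.2% of all probe sets). Dormant IL13-negative clones had 11 higher and 22 lower (20.2% and 20.8%). Of the 44 bright members, 10 were higher and 19 lower in dormant IL13+ clones, against 1858 and 1941 of all 5632 bright probe sets. In dormant IL13-negative clones these counts were 11 and 21, against 1837 and 1988. Psmb10 was higher by 1.80 in IL13+ clones and by 1.31 in IL13-negative clones, and Psmg1 lower by -1.29 and -0.80. Activated IL13+ clones had 14 members higher and 5 lower than activated CD8bm1 (15.6% and 13.9%). Activated IL13-negative clones had 34 higher and 2 lower (17.4% and 15.6%). Among bright members 13 were higher and 5 lower in activated IL13+ clones, against 1604 and 1480 of all bright probe sets. In activated IL13-negative clones these counts were 31 and 2, against 1795 and 1518. Psmd7 was higher by 0.90 and 0.92 and Psme2 by 0.73 and 0.60 in activated IL13+ and IL13-negative clones. Psmd7 was 9.55, 9.36, 9.87 and 9.84 in activated CD8bm1, below every other activated group, whose means were 10.48 to 10.68. It was 9.95, 10.20, 9.83 and 10.36 in dormant CD8bm1, overlapping slightly, and fell with activation there (-0.43, limma adjusted p = 0.000259). In sAg3 it was 10.55, 10.49, 10.40 and 10.52 in activated and 10.80, 10.61 and 10.72 in dormant arrays, which did not overlap, and the difference of -0.22 did not pass (limma adjusted p = 0.0677) on the deposited scale and did after centring (-0.67).

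Other genes of the pathway were taken from fixed lists. Of 10 probe sets for proteasome partners outside the prefix, 7 rose with activation and 1 fell, with a median of 0.35. The 3 largest rises were in Zfand5 (0.53), a proteasome-binding activator, Zfand2a (0.51), a stress-inducible relative, and Pomp (0.51), the maturation factor of the 20S core. Ecpas, which holds core and cap together, fell by 0.08, and after centring 2 rose and 5 fell. Of 8 probe sets of the Nrf1 axis, 7 rose and 1 fell, with a median of 0.55, and 4 rose and 2 fell after centring. Among those that rose, Nfe2l2 did so by 0.15 on the mean of the clones. It averaged 4.96 in dormant sAg3, near background, and 6.34 in activated sAg3. In each other clone its mean was lower when activated, for example 9.44 dormant and 9.19 activated in sAg1. Nfe2l3 rose by 0.37, but its difference was -0.04 after centring and -0.03 after quantile normalisation. Syvn1, a ubiquitin ligase of the endoplasmic reticulum that acts on Nrf1, rose by 1.07, the partner factors Mafk and Maff by 0.97 and 0.95, and Nfe2l1 (Nrf1) by 0.62 ± 0.028 (limma adjusted p = 1.17e-20). Ngly1, the deglycosylase that processes Nrf1, fell by 0.66 (SE 0.040, limma adjusted p = 5.92e-17). Of 14 probe sets for shuttle factors and the Vcp complex, 10 rose and 2 fell, with Ubqln4 at 0.95, Nsfl1c at 0.80 and 0.73, Nploc4 at 0.79 and the segregase Vcp at 0.70. Faf1 fell by 0.42. Uba6, Uba3 and Nedd8, of the ubiquitin and NEDD8 conjugation system, rose by 0.34, 0.26 and 0.26, each below zero after centring. Over all probe sets tested 68.4% rose and 22% fell as deposited, and 36.1% rose and 47.7% fell after centring.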

How the data were processed

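The series holds 38 Affymetrix arrays. The deposited values are log2 intensities per probe set, made with Partek and RMA per the submitters' processing notes; the sources used here give no background correction, version, build, scan date or batch. Probe sets were named from the platform annotation: of 35556, 21789 had 1 symbol and 1621 several, and these 23410 were tested. Members and gene lists were chosen with earlier results of these data known.

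limma 3.58.1 (R 4.3.3) was fitted with a mean per group over all 38 arrays, contrasts with equal clone weights, eBayes with trend, and Benjamini-Hochberg adjustment over 23410 probe sets; a call is an adjusted p under 0.05. On simulated data with 200 changed genes each, 93.5%, 99% and 100% of changes of 0.3, 0.5 and 1 were called. False calls numbered 31, or 5.03% of the calls. The simulated arrays had independent noise, no array-wide shift and few changed genes, so these rates need not hold for the real arrays. Values per array and full statistics were given for the 3 standard active-site subunits, Psmb10, Psme1, Psme2 and Psme3, the 5 largest rises and falls, the 4 largest dormant clone ranges and the 4 smallest F test p-values. Alternatives were median centring, quantile normalisation, centring on bright probe sets (chosen after seeing the data), minimum differences of 0.5 and 1, clone means as replicates, a replicate block and arrays or clones left out. Arrays of a group correlated at 0.985 to 0.995. Every array differed from every other.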

Additional observations from a re-analysis of the deposited data

Results flagged for a closer look

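Among 168 groups of 4 arrays screened, 6 had 1 array far from the others, which chance gives in about 1 group in 20. Psmb5 was 8.81 in dormant 8uvmo-3 replicate 3, against 8.86 to 8.87 in the others. Psmd12 was 10.25 in the same array, against 10.18 to 10.19. Psme4 was 9.09 in activated sAg1 replicate 4, against 9.32 to 9.35. Psmg1 was 8.95 in activated 8uvmo-3 replicate 1, against 9.13 to 9.15. Psmb2 was 12.04 in activated 8uvmo-2 replicate 1, against 11.68 to 11.73, and 11.39 in activated sAg1 replicate 1, against 11.41 in the others.

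The activation effect differed between IL13+ and IL13-negative clones, by a test of the difference itself, in 9 of the members described with full statistics. The difference was negative in Psme3 (-0.47), Psme4 (-0.39), Psmd12 (-0.34), Psmc6 (-0.29), Psma5 at 10365426 (-0.27), Psmb7 (-0.27), Psmb2 (-0.23) and Psma2 (-0.21), and positive in Psme2 (0.22). With clone means as replicates the same contrast had no limma call among members, with 1 unadjusted p under 0.05.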

How the results depend on the processing

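Centring on the array medians turned the balance of members called in sAg3 (33, 5 higher and 28 lower), CD8bm1 (34, 6 and 28) and the dormant phenotype comparison (23, 10 and 13), and left 31 in 8uvmo-3 and 9 for the difference in activation. It turned the sign of Psma5 at 10365426 (-0.071), Psma2 (-0.30) and Psmc6 (-0.0245) on the mean of the clones. A minimum difference of 0.5 left 21 members for mean activation, 29 in sAg1, 11 in sAg3, 27 in 8uvmo-3, 12 in CD8bm1, 7 for dormant IL13+ against CD8bm1 (4 higher and 3 lower, turning the balance), 4 each for activated IL13+, dormant IL13-negative and activated IL13-negative against CD8bm1, and 0 for the 3 phenotype comparisons, none of whose differences reached 0.5. A minimum of 1 left 2 for mean activation, 9 in sAg1, 2 in sAg3, 8 in 8uvmo-2, 2 in 8uvmo-3, 2 in CD8bm1, 2 for dormant IL13+ and 1 for dormant IL13-negative against CD8bm1 (turning the balance), and 0 for the rest. Clone means as replicates left 39 for mean activation and 0 for the phenotype comparisons.

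Leaving out 1 array at a time gave 48 to 50 calls for mean activation, 45 to 48 in sAg1, 29 to 31 in sAg3, 46 to 48 in 8uvmo-2, 46 to 48 in 8uvmo-3 and 37 to 46 in CD8bm1. It gave 21 to 25 for the dormant phenotype comparison, 24 to 31 for the activated one, 16 to 21 for the difference, 30 to 34, 15 to 20, 28 to 34 and 31 to 35 for the dormant and activated IL13+ and dormant and activated IL13-negative comparisons with CD8bm1, and 40 to 43 for the F test. The dormant phenotype balance turned (12 higher, 13 lower) without dormant sAg3 replicate 1 or dormant 8uvmo-2 replicate 4. Quantile normalisation and centring on bright probe sets moved no count by over 1.5 times. Of 18 same-numbered pairs (r -0.24 to 0.27), 7 were over 0.1, all 4 of 8uvmo-2 (0.11 to 0.24) among them. With clone and replicate number as a block, 47 members were called in 8uvmo-2, as without it. The same block gave 48 calls for mean activation, and Psme1 lost its call (limma adjusted p = 0.0504). For the phenotype comparisons and those with CD8bm1 the block was the replicate number alone. No count moved by over 1.5 times with either block. With clone means Psmb10 (limma adjusted p = 0.0825), Psma5 at 10365426 (0.054), Psma2 (0.363), Psmg2 (0.147), Psme1, Psme4 and Psmd4 lost their calls. The causes were not tested beyond the smaller number of replicates or the minimum set. Signal over background limits Psma8 and Psmb11.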
